A study of Homo sapiens with 12 samples.

Results

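Gene expression after a miR-138 mimic was compared with gene expression after a control RNA in Calu-3 cells, an established human airway epithelial line that came from a lung adenocarcinoma. The mimic group held 3 arrays, biological replicates 1 to 3, and the control group held 3 arrays of cells given NC1, a scrambled oligonucleotide, biological replicates 4 to 6. Together these were 6 of the 12 arrays of the series. NC1 4 to 6 were taken as the control because they are listed directly before the mimic arrays, and no label states that the groups were handled together. NC1 replicates 1 to 3 serve only as a check, and 3 further arrays of cells given a small interfering RNA against SIN3A bear on the fit through the shared variance alone. The labels give no genetic change of the cells in any group, and the oligonucleotides were delivered with the lipid reagent lipofectamine RNAiMAX. Neither dose nor time to harvest is stated in those labels. The extraction notes speak of primary cultures, while every sample is labelled as the line. The titles call the arrays biological replicates without naming separate cultures, so the p-values reflect array-to-array spread, which may be technical.

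A microRNA is loaded into an Argonaute protein and guides it to messenger RNAs, mostly through pairing of the seed, a short stretch near its 5′ end. Targets are then translated less and degraded faster, usually by a modest amount each, so that many transcripts can shift at once. A mimic is a synthetic duplex that puts such a microRNA into cells in excess. miR-138 has been reported to target SIN3A, the scaffold on which histone deacetylases assemble to silence genes. The title of the series names a network of microRNAs that acts on CFTR, the chloride and bicarbonate channel of airway epithelium that is mutated in cystic fibrosis.

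The mature sequences are shown because the seed sets which transcripts the mimic could pair with. They are the RefSeq entries, with positions on GRCh38.p14, and capitals mark the seed, bases 2 to 8 from the 5′ end. Both human miR-138 genes give the same 5p strand, from chr3:44114234-44114256 and from chr16:56858527-56858549, both on the plus strand. Their 3p strands, from chr3:44114274-44114295 and chr16:56858574-56858595, have different seeds.
hsa-miR-138-5p: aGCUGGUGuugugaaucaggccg
hsa-miR-138-1-3p: gCUACUUCacaacaccagggcc
hsa-miR-138-2-3p: gCUAUUUCacgacaccaggguu
The labels do not say which strand the mimic represents, and in the RefSeq table used no other human mature microRNA shares any of these seeds. The 3′ UTR sequences in which seed matches would lie were not used here, so direct and indirect responses cannot be told apart.

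Each array gave 1 log2 level for each of 18417 genes, and array medians lay between 5.09 and 5.16 over all probe sets. Across genes, the mimic arrays correlated with each other at 0.992 to 0.994 and NC1 4 with NC1 5 at 0.995. NC1 6 stood apart from NC1 4 and 5 (0.988 to 0.989), with the highest median of the series and a narrower spread of levels (SD over genes 1.38, against 1.44 and 1.45). The mimic arrays correlated with NC1 4 to 6 at 0.983 to 0.988 and with NC1 1 to 3 at 0.972 to 0.985. The parts of the control correlated at 0.967 to 0.982, and 1850 genes (10.0%) differed between them (limma adjusted p under 0.05). The airway epithelial markers (EPCAM, CDH1, keratins 8, 18 and 19, MUC1, ELF3, CLDN4 and CFTR) had a mean level of 7.86 to 7.92 on NC1 4 to 6 and 7.74 to 7.79 on the mimic arrays. Fibroblast markers were at 4.4 to 4.54 and 4.44 to 4.47, leukocyte markers at 5.04 to 5.14 and 4.99 to 5.09, endothelial markers at 4.01 to 4.14 and 4.05 to 4.12, and ciliated airway markers at 4.57 to 4.62 and 4.62 to 4.70. Levels of different genes on an array are not on a common scale, and an array gives no zero. Of the markers of other cell types, 0 of 8 fibroblast, 0 of 6 leukocyte, 0 of 6 endothelial and 0 of 6 ciliated genes were called. Only 3.49% of all genes were called, and 0.717% in the lowest of 4 groups by level. Lists this small would thus be likely to hold no call in any case.

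SIN3A mRNA fell with the mimic. It was at 7.34, 7.16 and 7.11 on NC1 4, 5 and 6, and at 5.93, 6.05 and 6.25 on mimic 1, 2 and 3. All mimic arrays lay below all control arrays, and they also lay below NC1 1, 2 and 3 (6.79, 6.71 and 6.36). The mean was 7.20 ± 0.12 (SD, n = 3) with NC1 4 to 6 and 6.08 ± 0.16 (SD, n = 3) with the mimic, which left 45.8% of the control level (log2 difference -1.13, SE 0.12, limma adjusted p = 4.27e-05). An exact two-sided permutation test over the 20 splits of these 6 arrays gave p = 0.1, the smallest it can give. The difference from NC1 1 to 3 was -0.54 (limma adjusted p = 0.0113). Left without any 1 of the 6 arrays, SIN3A remained called, at -1.21 to -1.05 (highest limma adjusted p = 0.00065).

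CFTR mRNA was lower on all mimic arrays than on all NC1 4 to 6 arrays, by less than SIN3A. Its level was 8.27, 8.22 and 7.89 on NC1 4, 5 and 6 and 7.54, 7.62 and 7.52 on mimic 1, 2 and 3. NC1 1, 2 and 3 were at 7.95, 7.93 and 7.46, so the mimic arrays overlapped with that part of the control. The difference was -0.57 (SE 0.13, limma adjusted p = 0.0188), or 67.5% of NC1 4 to 6, with an exact two-sided permutation p of 0.1, again the smallest possible. It was -0.22 against NC1 1 to 3 and did not pass (limma adjusted p = 0.355). The call was lost without NC1 4 (limma adjusted p = 0.106), NC1 5 (0.0969) or mimic 1, 2 or 3 (0.0825, 0.0520 and 0.0811), and was kept without NC1 6 (-0.69, limma adjusted p = 0.00824). The probe sets of the precursor genes MIR138-1 and MIR138-2 were at -0.05 and -0.12 (limma adjusted p = 0.965 and 0.868). They measure precursor transcripts and are no check of how much mimic entered the cells.

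Across the transcriptome, 642 of 18417 genes were called at a limma adjusted p under 0.05 (3.49%), 293 of them higher with the mimic (1.59%) and 349 lower (1.89%). Genes of the interferon response, inflammatory cytokines and NRF2 targets were among those that rose, and genes of DNA replication, mitosis and histones among those that fell, as set out below by group. The called rises had a median of 0.54 on the log2 scale and reached 2.73, and the called falls had a median of -0.55 and reached -1.55. A change of at least 1.5-fold was called for 118 genes up and 147 down, and of at least 2-fold for 35 up and 18 down. At 3-fold the counts were 13 and 0. The median over all genes was -0.005, and 95% of genes lay between -0.38 and 0.36. Without NC1 6 there were 194 called higher (1.05%) and 366 lower (1.99%), so the share of calls that were higher went from 45.6% to 34.6%. Without mimic 1 it was 163 higher and 200 lower, the lowest total. The total was 398 without NC1 5, 416 without mimic 2 and 420 without mimic 3. Rises numbered 177 without mimic 3, and falls 208 without NC1 4, 197 without NC1 5 and 220 without mimic 2. Of 13837 probe sets with several symbols or none, tested apart, 53 were called (0.383%). Calls depended on level: 0.717% of genes in the lowest of 4 equal groups by mean level were called and 8.64% in the highest. The all-gene shares set beside lists below are not matched for level.

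**Figure D1:**
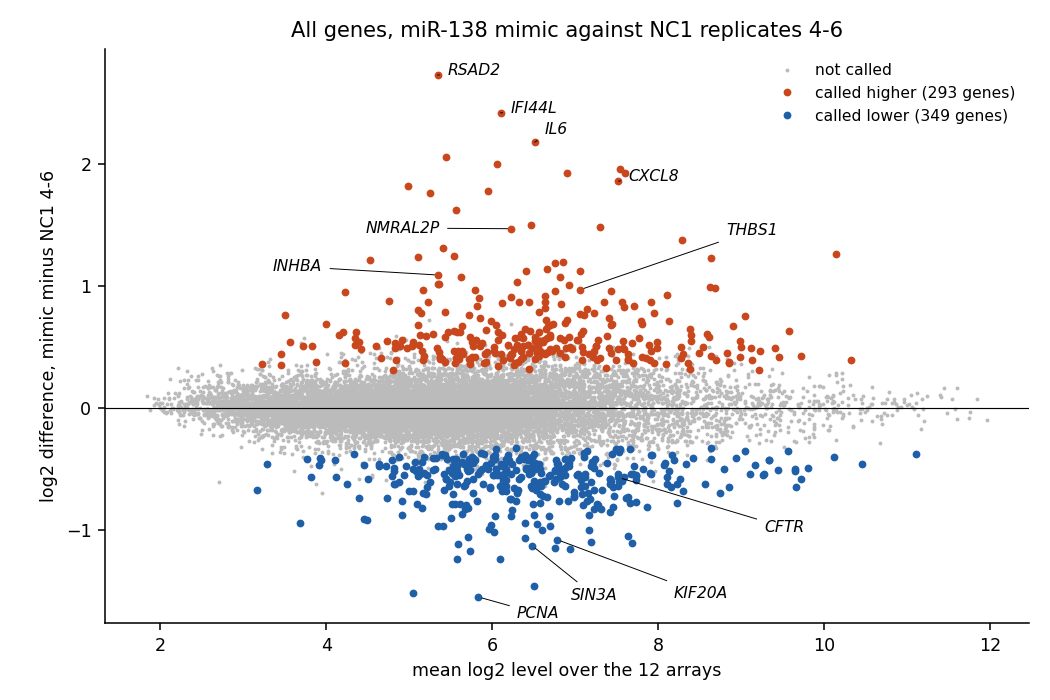
Each point is 1 of 18417 genes, placed by its mean log2 level over the 12 arrays and by its log2 difference, mimic minus NC1 4 to 6. The 293 genes called higher reach 2.73 and the 349 called lower reach -1.55; gene names mark RSAD2, IFI44L, IL6, CXCL8, NMRAL2P, THBS1 and INHBA above and CFTR, KIF20A, SIN3A and PCNA below.

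NC1 1 to 3 serve below as a check, since the size of many changes depended on which part of the control was used. Against NC1 1 to 3, 1107 genes were higher with the mimic (6.01%) and 468 lower (2.54%). List counts against NC1 1 to 3 below are to be read beside these shares. Both comparisons share the mimic arrays, so they are given side by side and not as separate evidence. The mimic arrays all exceeded NC1 4, 5 and 6 for 1791 genes (9.72%) and were all under them for 1724 (9.36%). For 716 genes (3.89%) they exceeded all 6 NC1 arrays, and for 467 (2.54%) they were under all 6. Of the genes called against NC1 4 to 6, 152 (51.9% of those higher) lay above all 6 NC1 arrays and 121 (34.7% of those lower) lay below all 6. The call itself draws on NC1 4 to 6, so these shares are not to be set beside 3.89% and 2.54%. The nearer background is 716 of the 1791 genes above NC1 4 to 6 and 467 of the 1724 below, called or not.

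Of the 15 genes with the largest rises, 11 were in the list of interferon-stimulated genes, which cells switch on after sensing foreign RNA or after an interferon signal. The 15 were picked among called genes whose mimic arrays all lay above NC1 4 to 6, so that separation was set in advance. RSAD2, whose product viperin restricts the replication of viruses, was at 3.85, 4.16 and 3.90 on NC1 4 to 6 and at 6.59, 6.62 and 6.87 on the mimic arrays. That is a 6.61-fold rise (log2 2.73, SE 0.13, limma adjusted p = 8.74e-09), with no overlap, and the mimic arrays were also above NC1 1 to 3 (5.98, 5.59 and 5.85). IFI44L, a gene induced by interferon, was at 4.66, 5.02 and 5.15 on the control arrays and at 7.07, 7.54 and 7.49 on the mimic arrays. It rose 5.36-fold (log2 2.42, SE 0.18, limma adjusted p = 4.67e-07) but overlapped with NC1 1 to 3 (7.38, 7.13 and 6.80). DDX60, a helicase of antiviral sensing, was at 4.57, 4.49 and 4.23 and then at 6.33, 6.43 and 6.70. It rose 4.16-fold (log2 2.06, SE 0.14, limma adjusted p = 2.11e-07) and lay above all NC1 arrays. IFIT1, which binds RNA that lacks the methylated cap of host messages, went from 4.89, 5.14 and 5.11 to 6.98, 6.85 and 7.32. Its rise was 4.01-fold (log2 2.00, SE 0.12, limma adjusted p = 8.29e-08), and the lowest mimic array was level with the highest of NC1 1 to 3 to 2 decimals.

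Enzymes that make the second messenger of RNase L rose as well. OAS1 went from 6.20, 6.45 and 6.47 to 8.19, 8.32 and 8.48 (log2 1.96, SE 0.10, limma adjusted p = 1.42e-08). OAS2 went from 3.99, 4.06 and 4.16 to 5.91, 5.82 and 5.93 (log2 1.82, SE 0.10, limma adjusted p = 2e-08). Both lay above all 6 NC1 arrays, at 0.30 and 0.47 above the mean of NC1 1 to 3. Of the 2, OAS2 was called against NC1 1 to 3 (limma adjusted p = 0.00595) and OAS1 was not (0.0834). MX1, a GTPase that traps viral nucleocapsids, rose by 1.78 and IFI44 by 1.93, and both lay above all NC1 arrays. Against NC1 1 to 3 they were at 0.35 and 0.47, where IFI44 was called (limma adjusted p = 0.0331) and MX1 was not (0.0588). IFIT2 rose by 1.76 but overlapped with NC1 1 to 3 (0.29, limma adjusted p = 0.292). IFIH1, which encodes MDA5, a sensor of long double-stranded RNA, was at 6.64, 6.74 and 5.77 on NC1 4 to 6, where NC1 6 was the low one, and at 7.64, 7.81 and 8.15 on the mimic arrays (log2 1.48, SE 0.20). It too overlapped with NC1 1 to 3 (0.19, limma adjusted p = 0.631). IFI27, which encodes a mitochondrial protein, and IFITM1, which blocks the entry of viruses, rose against NC1 4 to 6 (1.93 and 1.62) but were lower than NC1 1 to 3 (-0.50 and -0.67, limma adjusted p = 0.0300 and 0.00452).

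Of 42 measured genes in the interferon list, 32 rose and 0 fell, against 1.59% and 1.89% of all genes, and their median was 0.87 on the log2 scale against -0.005. Sensors rose together with effectors: RIGI by 0.87 and EIF2AK2, the kinase that halts translation when it binds double-stranded RNA, by 0.96. ISG15, a ubiquitin-like modifier, rose by 0.74, and the chemokine genes CXCL11 and CXCL10 by 0.76 and 0.44. From NC1 1 to 3, RIGI differed by 0.16, EIF2AK2 by 0.70 (limma adjusted p = 0.00615), ISG15 by -0.15, CXCL11 by 0.18 and CXCL10 by 0.23. Members that did not pass included OAS3 at 0.40 and ISG20 at 0.40. With NC1 1 to 3 in place of NC1 4 to 6, 7 members were higher and 2 lower, with a median of 0.14. The parts of the control themselves differed in this list, with a median of -0.75 for NC1 4 to 6 minus NC1 1 to 3. The mean level of the list was 5.08 to 5.09 on NC1 4 to 6, 5.90 to 6.04 on NC1 1 to 3 and 6.03 to 6.18 on the mimic arrays. The part of that difference between controls in the rise was not tested. Leaving out any 1 of the 6 arrays gave 30 to 33 members higher, 33 of them without NC1 6.

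**Figure D2:**
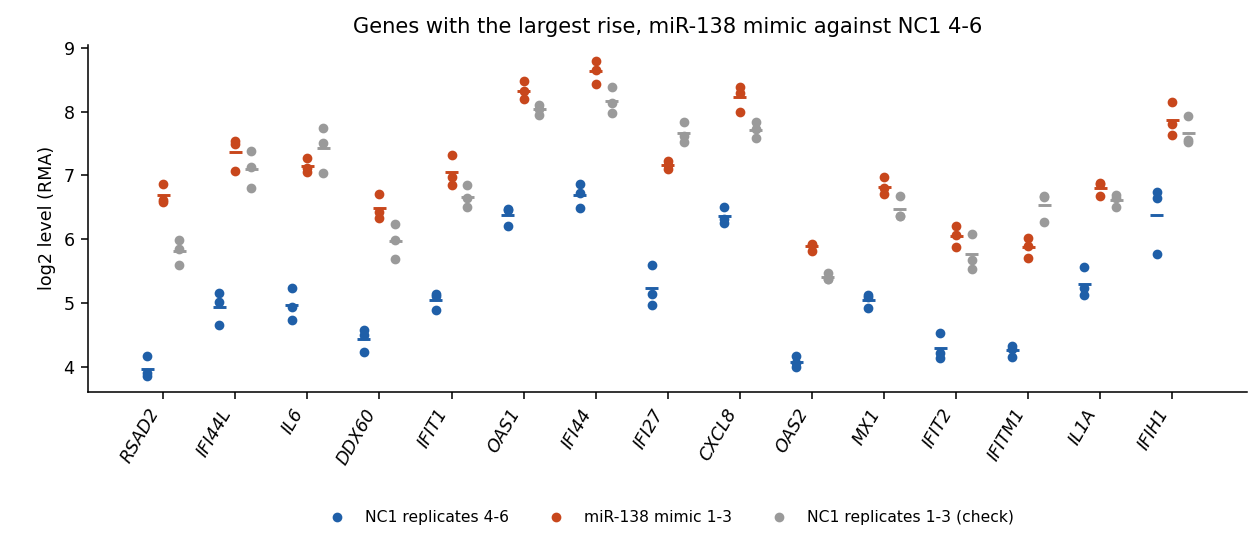
Log2 levels of the 15 genes with the largest called rise, 1 point per array and a bar for each group mean (n = 3 arrays a group), with NC1 4 to 6 in blue, the mimic in orange and NC1 1 to 3 in grey. The mimic arrays lie above all NC1 4 to 6 arrays for each gene because genes were picked for that. They lie above all 6 NC1 arrays for 8 of the 15.

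Promoters of members that rose together are shown for the motif they share. Sequences run from 250 bases before the gene start to 50 bases after it, on the gene's strand, from RefSeq on GRCh38.p14, and capitals mark the core of the interferon-stimulated response element, GAAANNGAAA on either strand. IFI44L is read from chr1:78620198-78620497 (plus strand), DDX60 from chr4:168318703-168319002 (minus strand) and IFIT1 from chr10:89392373-89392672 (plus strand). The start that the promoter table uses for DDX60 lies inside the gene's full annotated span, so that window is not at its outermost start.
IFI44L: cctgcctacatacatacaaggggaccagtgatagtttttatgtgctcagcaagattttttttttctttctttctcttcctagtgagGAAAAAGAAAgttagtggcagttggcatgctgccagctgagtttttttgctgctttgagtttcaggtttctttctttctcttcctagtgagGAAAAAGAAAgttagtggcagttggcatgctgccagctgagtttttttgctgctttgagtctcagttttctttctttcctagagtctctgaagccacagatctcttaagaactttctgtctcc
DDX60: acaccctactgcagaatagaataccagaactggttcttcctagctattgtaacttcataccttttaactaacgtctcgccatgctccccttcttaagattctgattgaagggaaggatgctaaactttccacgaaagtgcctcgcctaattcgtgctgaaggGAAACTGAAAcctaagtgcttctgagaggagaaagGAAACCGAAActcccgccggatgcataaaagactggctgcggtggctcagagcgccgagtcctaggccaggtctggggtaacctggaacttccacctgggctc
IFIT1: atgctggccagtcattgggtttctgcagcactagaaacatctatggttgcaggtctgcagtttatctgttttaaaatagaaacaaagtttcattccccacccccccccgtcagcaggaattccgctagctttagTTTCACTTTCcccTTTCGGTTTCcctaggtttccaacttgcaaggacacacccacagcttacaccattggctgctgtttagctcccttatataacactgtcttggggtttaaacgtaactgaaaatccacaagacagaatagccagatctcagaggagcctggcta
Each of the 3 windows holds the core more than once, but these 3 genes were hand-picked and need not stand for the list. Among 14237 genes with a promoter in the table, 3.04% held it. The share was 11.5% among genes called higher (29 of 252), 3.00% among genes called lower (9 of 300) and 61.8% in the interferon list (21 of 34). These sets overlap, since members of the interferon list that rose are also counted among genes called higher. A match is a run of letters and not a measured site, and the motifs were chosen after the values had been seen.

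Inflammatory cytokine genes formed the next group of rises. IL6, which encodes the cytokine that drives the acute phase response, was at 4.93, 4.73 and 5.23 on NC1 4 to 6 and at 7.27, 7.05 and 7.12 on the mimic arrays. It rose 4.54-fold (log2 2.18, SE 0.15, limma adjusted p = 3.32e-07), yet NC1 1 to 3 were at 7.74, 7.51 and 7.03, and the difference from them was -0.28 (limma adjusted p = 0.321). CXCL8, the neutrophil attractant, was at 6.32, 6.51 and 6.26 and then at 8.39, 8.29 and 7.99 (log2 1.86, SE 0.11, limma adjusted p = 8.29e-08). Its mimic arrays lay above all 6 NC1 arrays, and it was also called against NC1 1 to 3 (0.51, limma adjusted p = 0.0104). IL1A, an alarmin of damaged epithelium, rose by 1.5, with 0.19 against NC1 1 to 3. PTGS2, the inducible cyclooxygenase of prostaglandin synthesis, was at 6.52, 6.40 and 6.29 and then at 7.30, 7.44 and 7.33, and it rose by similar amounts against both parts of the control (0.96 and 0.87, limma adjusted p = 4.9e-05 and 0.000105). In all, 7 of 34 measured genes of the list of inflammatory cytokines and NF-kB rose and 0 fell, against 1.59% and 1.89% of all genes, with a median of 0.17. The others were CCL20 (0.87), IL1RAP, the accessory chain with which interleukin-1 receptors signal (0.69), and CCL5 (0.51). The counts were 5 higher and 4 lower against NC1 1 to 3, with CCL20 at -0.97 and IL1RAP at 1.55.

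In the list of antigen presentation, PSMB9, a catalytic subunit of the immunoproteasome, rose from 7.30, 7.17 and 7.17 to 8.52, 8.40 and 8.85 (log2 1.38, SE 0.11, limma adjusted p = 1.13e-06). It was -0.18 against NC1 1 to 3. PSME1, a proteasome activator subunit, rose by 0.37, a call lost without 5 of the 6 arrays. The other 12 measured members did not pass, so 14.3% of this list was called, against 3.49% of all genes. SAA1, an acute phase protein, was at 5.13, 4.68 and 4.50 on NC1 4 to 6, at 5.64, 5.37 and 5.77 with the mimic and at 8.40, 8.39 and 8.52 on NC1 1 to 3. It thus rose by 0.82 against the control used here (limma adjusted p = 0.00182) and stood at -2.84 against the check arrays (limma adjusted p = 9.05e-09). CFB, complement factor B, had the same order of groups (0.55 and -1.20). These were the only called genes among 21 of the acute phase list (9.52%, against 3.49% of all genes). Against NC1 1 to 3, 0 of the list were higher and 10 lower, beside 6.01% and 2.54% of all genes.

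NRF2 is a transcription factor that induces detoxifying enzymes and the synthesis of glutathione when electrophiles or oxidants inactivate its inhibitor KEAP1. Of 23 measured NRF2 targets, 12 rose and 0 fell, against 1.59% and 1.89% of all genes, with a median of 0.43. NMRAL2P, a pseudogene that NRF2 induces, was at 5.81, 5.59 and 5.35 and then at 7.27, 7.05 and 6.85 (log2 1.47, SE 0.15, limma adjusted p = 1.95e-05). It stood above all 6 NC1 arrays and was called against NC1 1 to 3 as well (0.89, limma adjusted p = 0.00126). GCLC and GCLM, the subunits of the enzyme that limits glutathione synthesis, rose by 0.77 and 0.59, with 0.97 and 0.54 against NC1 1 to 3. TXNRD1, thioredoxin reductase, went from 8.76, 8.75 and 8.70 to 9.53, 9.51 and 9.43 (log2 0.75, SE 0.10). FTL, the ferritin light chain, rose by 0.67 and UGDH by 0.55. These 3 stood at 0.58, 0.21 and 0.47 against NC1 1 to 3. The aldo-keto reductase genes AKR1C2 (1.23), AKR1C1 (0.99), AKR1B10 (0.93) and AKR1C3 (0.43) rose against NC1 4 to 6 but stood at 0.07, -0.07, -0.09 and -0.56 against NC1 1 to 3. AKR1C genes are close copies that probes may not separate, and a further, dimmer probe set of AKR1C1 was at 0.02. HMOX1, haem oxygenase, was at 0.09 and SRXN1 at 0.13, neither called. The check arrays gave 7 targets higher and 1 lower, with a median of 0.06. The count was 10 to 12 when any 1 array was left out.

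Genes of the copying of DNA and of its packaging stood among the largest falls. PCNA, the sliding clamp that holds DNA polymerases to their template, was at 6.84, 6.61 and 6.58 on NC1 4 to 6 and at 5.17, 5.05 and 5.14 on the mimic arrays. It fell 2.94-fold (log2 -1.55, SE 0.12, limma adjusted p = 5.57e-07) and lay below all 6 NC1 arrays, with -0.82 against NC1 1 to 3 (limma adjusted p = 0.000364). FAM111B, which encodes a protease-like protein of dividing cells, was at 7.62, 7.63 and 7.47 and then at 6.18, 5.97 and 6.18. It fell by 1.46 (SE 0.10, limma adjusted p = 3.32e-07) and by 0.41 against NC1 1 to 3 (limma adjusted p = 0.0209). TYMS, thymidylate synthase, which makes the thymine building block of DNA, was at 8.28, 8.19 and 7.96 and then at 7.05, 6.95 and 7.15. It fell by 1.10 (SE 0.12, limma adjusted p = 2.71e-05), while NC1 1 to 3, at 7.40, 7.23 and 6.95, overlapped with the mimic arrays. HELLS, a chromatin remodelling helicase, fell by 1.12 and MCM6, a subunit of the replicative helicase, by 1.07, with -0.09 and -0.10 against NC1 1 to 3. Without NC1 6 the list of DNA replication and G1/S had 23 members lower and 0 higher. That setting also gave the most falls over all genes, 366 against 197 to 243 without any other of the 6 arrays. Counts of this list without the other arrays are not given here.

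Of 47 measured genes of DNA replication and the G1/S transition, 22 fell and 1 rose, against 1.89% and 1.59% of all genes, with a median of -0.39. The helicase subunit genes MCM3, MCM7 and MCM4 fell by 0.94, 0.66 and 0.55, while MCM2 (-0.16) and MCM5 (-0.20) did not pass. The clamp loader genes RFC4, RFC5 and RFC2 fell by 0.78, 0.57 and 0.39, and RFC3 (-0.38) did not pass. Of the genes of polymerase alpha and its primase, PRIM1 (-0.83), POLA1 (-0.64) and POLA2 (-0.42) fell, and PRIM2 (-0.39, limma adjusted p = 0.0578) did not pass. Both subunit genes of ribonucleotide reductase fell, RRM1 by 0.76 and RRM2 by 0.60. Among regulators, CCNE2, a cyclin of S phase entry, fell by 0.74 and the atypical repressor E2F8 by 0.87, from 6.22, 5.98 and 6.11 to 5.23, 5.19 and 5.28. Its paralogue E2F7 was the member that rose, by 0.32, and lost the call when any 1 of the 6 arrays was left out. Relative to NC1 1 to 3, 3 members were higher and 2 lower, with a median of -0.08. The parts of the control differed here by a median of 0.35, with NC1 4 to 6 higher. The mean level of the list was 5.92 to 5.96 with the mimic, 5.92 to 6.07 on NC1 1 to 3 and 6.3 to 6.41 on NC1 4 to 6. The part of the difference between controls in the fall was not tested.

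**Figure D3:**
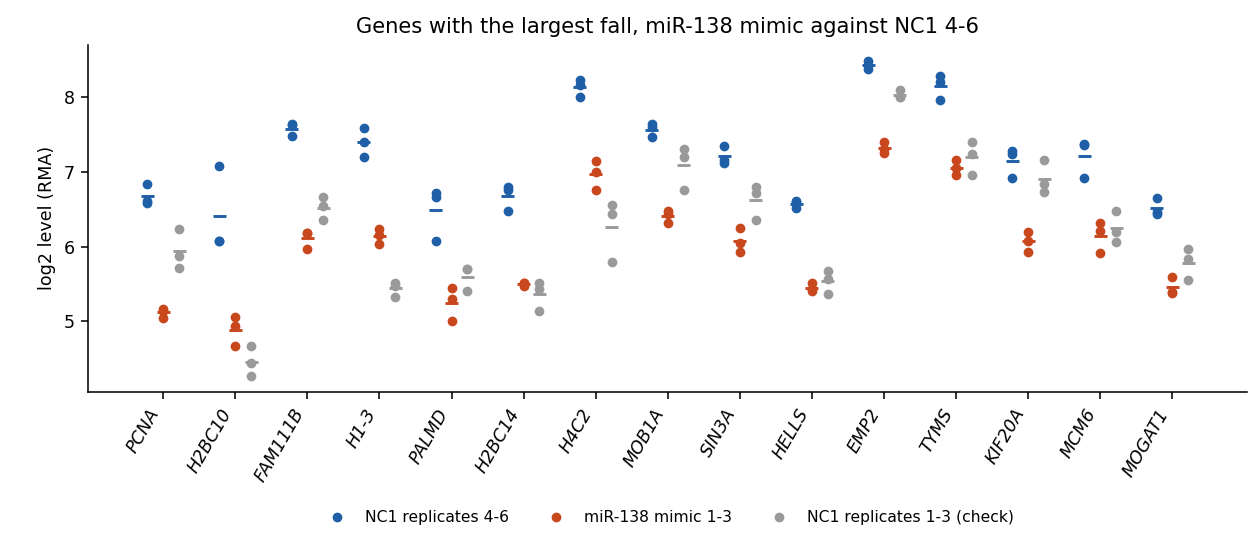
Log2 levels of the 15 genes with the largest called fall, drawn as for the rises: 1 point per array, a bar for each group mean (n = 3 arrays a group), NC1 4 to 6 in blue, the mimic in orange and NC1 1 to 3 in grey. The mimic arrays lie below all NC1 4 to 6 arrays for each gene because genes were picked for that. They lie below all 6 NC1 arrays for 6 of the 15. For the histone genes H2BC10, H1-3, H2BC14 and H4C2 their mean lies above that of NC1 1 to 3.

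Genes of mitosis and the G2/M transition lay on 1 side of 0. All 49 measured members had a log2 difference below 0, and 29 of them fell while 0 rose, with a median of -0.47. Over all genes 9520 of 18417 lay below 0, 1.89% fell and 1.59% rose. KIF20A, the kinesin of the cleavage furrow, was at 7.27, 7.24 and 6.92 and then at 5.93, 6.08 and 6.20. It fell by 1.08 (SE 0.12, limma adjusted p = 4.94e-05), and by 0.84 against NC1 1 to 3 (limma adjusted p = 0.000407). CDKN3, a phosphatase of cyclin-dependent kinases, was at 7.36, 7.42 and 7.14 and then at 6.35, 6.43 and 6.52. It was lower by about the same amount against both parts of the control (-0.88 and -0.93, limma adjusted p = 0.000214 and 9.92e-05). ASPM, a spindle pole protein, fell by 0.97, with -0.67 against NC1 1 to 3 (limma adjusted p = 0.00719). FOXM1, the transcription factor that drives G2/M genes, went from 6.24, 6.06 and 6.22 to 5.54, 5.48 and 5.23, a fall of 0.76, with -0.58 against NC1 1 to 3 (limma adjusted p = 0.00235). MKI67, the proliferation marker, fell by 0.75 and the chromosomal passenger gene BIRC5 by 0.65, and both were below all 6 NC1 arrays.

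Cyclin B1 (CCNB1, -0.54), the checkpoint kinase genes BUB1 (-0.58) and BUB1B (-0.64) and Aurora B (AURKB, -0.46) fell against NC1 4 to 6. The kinetochore genes NDC80 and NUF2 fell by 0.80 and 0.66, but they parted against NC1 1 to 3, at -0.64 and 0.64. HMMR, a spindle assembly factor, did likewise (-0.79 and 0.49). Over the list, 10 members were lower and 2 higher against NC1 1 to 3, with a median of -0.21. The parts of the control differed by a median of 0.30, with NC1 4 to 6 higher. The count of falls went from 17 to 31 when 1 array was left out: it was 17 without NC1 4, without NC1 5 or without mimic 1, and 31 without NC1 6, where the median was -0.60. In bulk samples fewer dividing cells and less RNA per dividing cell cannot be told apart.

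Histone genes of the clusters, whose messages are made in S phase to package new DNA, were grouped after their values had been seen, since several stood among the largest falls. Of 57 measured, 29 fell and 0 rose, against 1.89% and 1.59% of all genes, with a median of -0.43. H2BC10 was at 7.08, 6.07 and 6.07 on NC1 4, 5 and 6, where NC1 4 was the high one, and at 4.67, 4.94 and 5.06 with the mimic (log2 -1.52, SE 0.21, limma adjusted p = 0.000338). H1-3, a linker histone, went from 7.58, 7.39 and 7.20 to 6.04, 6.24 and 6.16 (log2 -1.24, SE 0.14). H2BC14 and H4C2 fell by 1.17 and 1.16. All 4 were higher, not lower, with the mimic than on NC1 1 to 3, by 0.43, 0.71, 0.14 and 0.71, and 2 of these differences passed (H1-3 and H4C2, limma adjusted p = 0.00376 and 0.0105). Over the group, 5 were higher and 3 lower against NC1 1 to 3, with a median that rounds to 0.00. The parts of the control differed by a median of 0.36. Histone genes are near-identical copies that probes may not separate, so single members are uncertain. With 1 array left out, 21 to 23 were lower.

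Promoters of 3 genes that fell, also hand-picked, are shown for the motifs tied to their groups, with build, length and source as above. For PCNA (chr20:5126573-5126872, minus strand) capitals mark a match to the E2F motif TTTCCCGC on either strand. For CDKN3 (chr14:54396757-54397056, plus strand) and ASPM (chr1:197146620-197146919, minus strand) they mark the cell cycle homology region, TTTGAA on either strand.
PCNA: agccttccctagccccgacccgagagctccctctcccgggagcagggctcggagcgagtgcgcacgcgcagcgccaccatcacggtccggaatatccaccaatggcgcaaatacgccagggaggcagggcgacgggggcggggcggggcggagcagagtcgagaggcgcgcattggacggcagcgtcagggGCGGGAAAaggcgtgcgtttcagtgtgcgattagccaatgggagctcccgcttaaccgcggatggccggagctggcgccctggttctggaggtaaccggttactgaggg
CDKN3: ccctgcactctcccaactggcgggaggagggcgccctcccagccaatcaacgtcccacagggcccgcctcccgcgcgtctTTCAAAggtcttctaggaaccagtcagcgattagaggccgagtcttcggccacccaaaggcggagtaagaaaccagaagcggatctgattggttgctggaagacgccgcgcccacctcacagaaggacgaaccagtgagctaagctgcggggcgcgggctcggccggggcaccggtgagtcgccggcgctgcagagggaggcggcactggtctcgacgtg
ASPM: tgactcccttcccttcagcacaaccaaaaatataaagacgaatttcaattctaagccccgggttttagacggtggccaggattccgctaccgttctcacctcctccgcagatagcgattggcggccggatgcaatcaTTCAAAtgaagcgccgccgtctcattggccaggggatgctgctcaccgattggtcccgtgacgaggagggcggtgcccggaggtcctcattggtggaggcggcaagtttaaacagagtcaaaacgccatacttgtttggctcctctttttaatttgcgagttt
The E2F motif stood in 2.25% of all 14237 promoters, 5.67% of those of genes called lower (17 of 300), 1.19% of those called higher (3 of 252) and 24.4% of those in the replication list (10 of 41). TTTGAA stood in 11.9% of all, 23.3% of those called lower (70 of 300), 10.3% of those called higher (26 of 252) and 66.7% in the mitosis list (28 of 42). CCAAT, on either strand, which often lies near that region in G2/M promoters, stood in 36.3% of all, 53% of those called lower, 40.1% of those called higher, 58.5% in the replication list and 76.2% in the mitosis list. None of these 4 motifs contains another. List members that fell are also counted among genes called lower, so these shares are not separate.

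Of 32 measured genes reported as targets of miR-138, SIN3A among them, 6 fell and 0 rose, against 1.89% and 1.59% of all genes, with a median of -0.11. The mean level of this list was 6.48 to 6.54 on NC1 4 to 6. In the highest of 4 groups by level, which starts at 6.09, 8.64% of genes were called, against 18.8% of this list. EID1, an inhibitor of the acetyltransferase p300, was at 7.91, 8.05 and 8.03 and then at 7.40, 7.48 and 7.49. It fell by 0.54 (SE 0.10, limma adjusted p = 0.00553), lay below all 6 NC1 arrays and was called against NC1 1 to 3 too (-0.37, limma adjusted p = 0.0363). CDK6, a kinase of G1, fell by 0.60, VIM, the intermediate filament vimentin, by 0.46, the histone methyltransferase gene EZH2 by 0.57 and the G protein subunit gene GNAI2 by 0.35. Against NC1 1 to 3 they were at 0.05, 0.20, -0.19 and -0.17. CLOCK (-0.48), SENP1 (-0.50), ROCK2 (-0.29), HIF1A (-0.21) and CCND3 (-0.20) did not pass. Against NC1 1 to 3, 3 members were higher and 7 lower, with a median of -0.07.

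In the SIN3-HDAC complex, 2 of 21 measured members were called (9.52%, against 3.49% of all genes), and both fell: SIN3A and PHF12, a subunit that binds chromatin. The mean level of this list was 6.97 to 7.13 on NC1 4 to 6. In the highest of 4 groups by level, which starts at 6.09, 8.64% of genes were called, near the share in this list. PHF12 went from 5.11, 5.23 and 5.27 to 4.62, 4.49 and 4.67 (log2 -0.61, SE 0.12, limma adjusted p = 0.00575) and lay below all 6 NC1 arrays, with -0.29 against NC1 1 to 3 (limma adjusted p = 0.155). The paralogue SIN3B (-0.05) and the deacetylase genes HDAC1 (-0.24) and HDAC2 (-0.12) did not pass. In the complex 4 members were higher and 2 lower against NC1 1 to 3, HDAC1 among the higher ones (0.39, limma adjusted p = 0.0214). Of 15 genes of microRNA processing and Argonaute 0 were called, with AGO1 at -0.34 and DICER1 at 0.08.

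Of 28 genes of airway ion transport, CFTR and 3 others fell and 0 rose (14.3% called, against 3.49% of all genes). SLC4A4, a sodium bicarbonate cotransporter, was at 6.20, 6.54 and 6.09 and then at 5.47, 5.31 and 5.34 (log2 -0.90, SE 0.14, limma adjusted p = 0.00104). SLC12A2, which loads chloride into secreting cells, was at 10.35, 10.23 and 10.06 and then at 9.57, 9.63 and 9.68 (log2 -0.58, SE 0.10, limma adjusted p = 0.0018). NHERF1, a scaffold that anchors CFTR at the apical membrane, fell by 0.37, a call lost without 5 of the 6 arrays. Against NC1 1 to 3 these 3 were at -0.05, 0.22 and -0.05, and in the list 1 gene was higher and 2 lower. The epithelial sodium channel genes SCNN1A, SCNN1B and SCNN1G were at -0.09, -0.04 and -0.02, and the chloride channel gene ANO1 at 0.18, none of them called.

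Genes of matrix and activin signalling included rises that were called against each part of the control. THBS1, the matrix glycoprotein thrombospondin-1, was at 7.14, 7.15 and 6.91 and then at 8.06, 8.03 and 8.03. It rose by 0.97 (SE 0.10, limma adjusted p = 2.28e-05), and by 1.22 against NC1 1 to 3 (limma adjusted p = 1.87e-06). INHBA, which encodes the subunit of activin A, went from 4.90, 4.87 and 4.90 to 6.32, 5.81 and 5.82 (log2 1.09, SE 0.12, limma adjusted p = 4.27e-05), with 0.89 against NC1 1 to 3. FST, the activin antagonist follistatin, rose by 0.58, SKIL, a repressor of SMAD signalling, by 0.50 and the laminin gene LAMB3 by 0.47, the last a call lost without 4 of the 6 arrays. FST, SKIL and LAMB3 stood at 0.42, 0.54 and 0.19 against NC1 1 to 3, where SKIL was called (limma adjusted p = 0.014). In this list 5 of 30 rose, VIM fell and the median was -0.02 (20% called, against 3.49% of all genes). With NC1 1 to 3 as the control, 5 members were higher and 1 lower. With 1 of the 6 arrays left out, 2 to 4 rose.

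MOB1A, an activator of the LATS kinases of the Hippo pathway, was the 1 gene called among 25 of the Hippo list, a share of 4.0% that is near the 3.49% of all genes. It fell from 7.59, 7.63 and 7.46 to 6.32, 6.43 and 6.48 (log2 -1.15, SE 0.12, limma adjusted p = 2.28e-05), below all 6 NC1 arrays, and was also called against NC1 1 to 3 (-0.67, limma adjusted p = 0.00194). EMP2, a membrane protein of epithelia, went from 8.48, 8.37 and 8.42 to 7.39, 7.25 and 7.30 (log2 -1.11, SE 0.08, limma adjusted p = 4.67e-07), with -0.72 against NC1 1 to 3 (limma adjusted p = 4.73e-05). The remaining large falls were those of PALMD, a paralemmin relative (-1.24), and MOGAT1, an acyltransferase of glyceride synthesis (-1.06), at -0.36 and -0.33 against NC1 1 to 3.

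The growth factor gene HBEGF rose by 0.90 and the phosphatase gene DUSP10, which acts on stress kinases, by 0.72, among 27 genes of EGFR ligands and MAPK feedback. DUSP10 was called against NC1 1 to 3 as well (0.68, limma adjusted p = 0.00235), and HBEGF was not (0.10). EGR1 fell by 0.43, a call lost without 5 of the 6 arrays. In all 11.1% of this list was called, against 3.49% of all genes, and 2 members were higher and 2 lower against NC1 1 to 3. Of 31 genes of the endoplasmic reticulum and the unfolded protein response, 4 rose and 1 fell (16.1% called), and 7 were higher and 3 lower against NC1 1 to 3. The mean level of these 31 genes was 7.03 to 7.09 on NC1 4 to 6. In the highest of 4 groups by level 8.64% of genes were called. PPP1R15A, which reverses the block of translation by phosphorylated eIF2 alpha, rose by 0.84, asparagine synthetase (ASNS) by 0.57, HERPUD1 by 0.52 and the chaperone gene HSPA5 by 0.39, while DERL1, of the degradation channel, fell by 0.39. These 5 stood at 0.29, 0.02, 0.21, 0.72 and -0.41 against NC1 1 to 3, where HSPA5 and DERL1 were called (limma adjusted p = 0.000138 and 0.021). HERPUD1 and HSPA5 lost the call without 5 of the 6 arrays, and 2 to 3 members rose when 1 array was left out. Of 22 measured genes in the list of p53 targets 1 was called, 4.55% and near the 3.49% of all genes: GADD45A rose by 0.91, with 0.22 against NC1 1 to 3. That list does not hold PMAIP1, which rose by 1.31 and is named below, so its count covers its own members alone.

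Lists of lysosome and autophagy (3 of 27 higher, 1 lower), cytosolic chaperones (3 of 23 higher), COPII coat, cargo receptors and SNAREs (2 of 29 higher), glycolysis and hypoxia (2 of 29 higher) and secretory airway genes (2 of 29 higher) held few calls, with medians between -0.03 and 0.10. The shares called were 14.8%, 13.0%, 6.9%, 6.9% and 6.9%, against 3.49% of all genes and 8.64% of those in the highest of 4 groups by level. Against NC1 1 to 3 the counts in the same order were 1 higher and 1 lower, 6 and 0, 4 and 0, 12 and 1, and 0 and 12, and the glycolysis and hypoxia median was 0.24. GABARAPL1 and WIPI1, both of autophagosome formation, rose by 0.63 and 0.52 and the autophagy receptor gene SQSTM1 by 0.45, the last a call lost without NC1 5 (limma adjusted p = 0.0532). ATP6V1A, a proton pump subunit, fell by 0.42. The chaperone genes DNAJB4, CHORDC1 and DNAJB1 rose by 0.70, 0.69 and 0.40, and each lost the call without at least 5 of the 6 arrays. MCFD2, which helps carry clotting factors out of the endoplasmic reticulum, rose by 0.58, with 1.36 against NC1 1 to 3, and the SNARE gene BET1 by 0.38, with -0.06. NDRG1, a hypoxia response gene, rose by 0.65 and the growth factor gene VEGFA by 0.41, with 1.07 (limma adjusted p = 3.45e-05) and 0.18 against NC1 1 to 3. ATP6V1A, BET1 and VEGFA lost the call without at least 5 of the 6 arrays. S100P and AGR2, both of secretory epithelium, rose by 0.51 and 0.47 but stood at -0.72 and -0.47 against NC1 1 to 3.

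Of 26 genes of cholesterol and fatty acid synthesis, 4 fell and 0 rose (15.4% called, against 3.49% of all genes), with a median of -0.20, while against NC1 1 to 3 the counts were 10 higher and 0 lower with a median of 0.30. The mean level of these 26 genes was 6.69 to 6.79 on NC1 4 to 6. In the highest of 4 groups by level 8.64% of genes were called. The members that fell were the prenyl synthase gene FDPS (-0.52), the desaturase genes SCD (-0.47) and FADS1 (-0.43) and ACACA, acetyl-CoA carboxylase (-0.45). ACACA was 0.53 higher than NC1 1 to 3 (limma adjusted p = 0.00543). With 1 of the 6 arrays left out, 2 to 4 members fell, and ACACA lost the call without 5 of them. No member was called among 27 proteasome genes, 30 of oxidative phosphorylation and 22 of epithelial junctions (0 called in each by limma), whose medians were 0.08, 0.00 and -0.01. These lists did hold calls against NC1 1 to 3: 10 proteasome genes were higher and 0 lower, with a median of 0.28, 3 genes of oxidative phosphorylation were higher and 5 lower, and 3 junction genes were higher and 0 lower. Over all genes 6.01% were higher and 2.54% lower in that comparison.

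**Figure D4:**
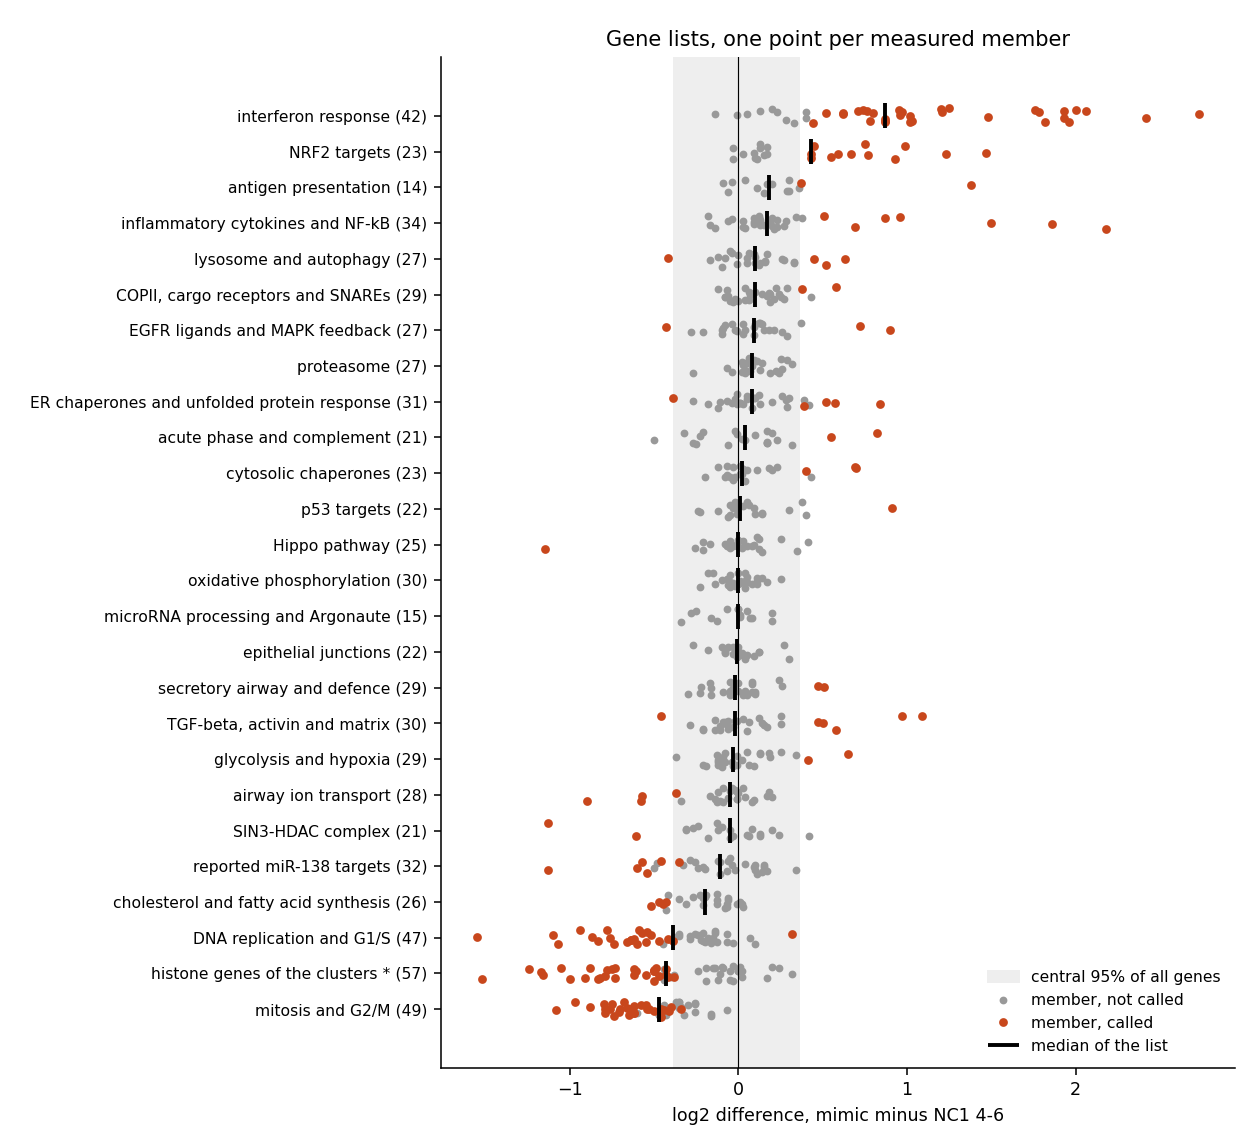
Each point is a measured member of a gene list, placed by its log2 difference, mimic minus NC1 4 to 6, with called members in orange, others in grey, a black bar at the median of the list and a grey band for the central 95% of all genes (-0.38 to 0.36). List sizes are in brackets, the asterisk marks the histone list, which was added after values had been seen, and the interferon and NRF2 medians (0.87 and 0.43) and the mitosis, histone and replication medians (-0.47, -0.43 and -0.39) lie outside or at the edge of the band.

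Some genes were called and also lay beyond all 6 NC1 arrays, and they are singled out here for that, after their values had been seen. Among those that rose were PMAIP1, the apoptosis inducer NOXA (log2 1.31, and 0.45 against NC1 1 to 3), GPR15, a chemoattractant receptor (1.07 and 0.87), and SAMHD1, which hydrolyses deoxynucleotides (1.01 and 0.47). SEMA7A, a membrane-anchored semaphorin (0.87 and 0.79), MAP1B, a microtubule protein (0.76 and 1.17), SERPINB5 (0.79 and 1.06) and the feedback inhibitor of EGFR ERRFI1 (0.72 and 0.64) rose against both parts. Among those that fell were EIF4EBP2, a repressor of cap-dependent translation (-1.0 and -0.44), RARB, a retinoic acid receptor (-0.97 and -0.47), and the transcription factor gene NFIB (-0.81 and -0.91). NFIB went from 7.66, 7.66 and 7.49 to 6.79, 6.77 and 6.83, with NC1 1 to 3 at 7.85, 7.81 and 7.46. SKP2, which targets cell cycle inhibitors for degradation, fell by 0.96 from NC1 4 to 6 and stood at -0.17 from NC1 1 to 3, where it did not pass (limma adjusted p = 0.36). SEMA6A (-0.89 and -0.58), ME2, a mitochondrial malic enzyme (-0.70 and -0.68), and HOXB6 (-0.69 and -0.57) fell against both parts.

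**Figure D5:**
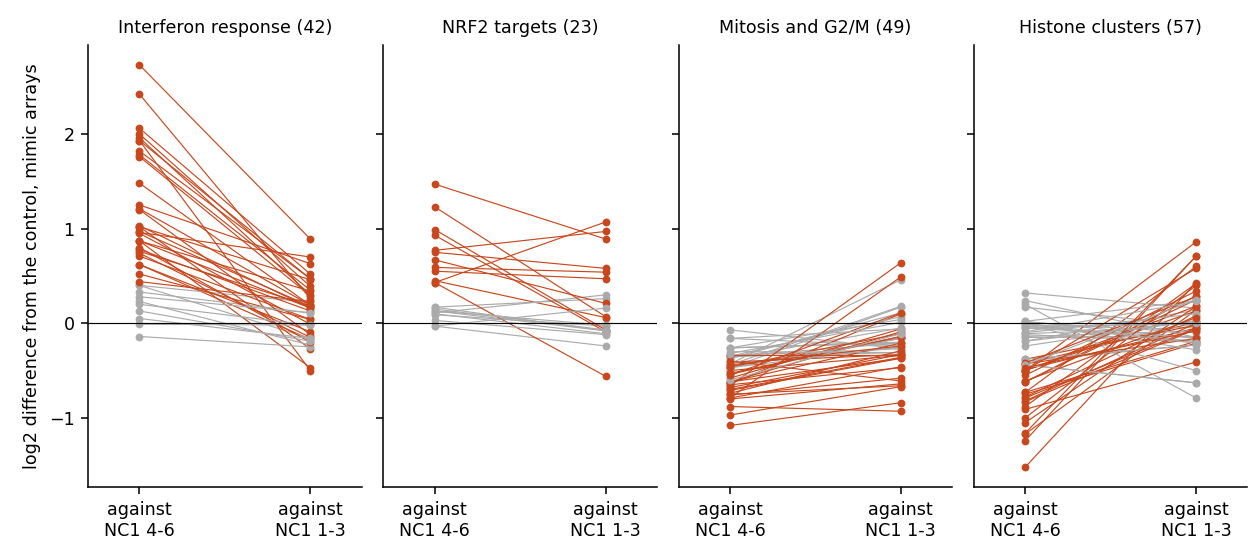
Log2 differences of the mimic arrays from NC1 4 to 6 (left of each panel) and from NC1 1 to 3 (right) for the members of 4 lists, a line per gene, orange where called against NC1 4 to 6. The medians go from 0.87 to 0.14 for the interferon list, from 0.43 to 0.06 for NRF2 targets, from -0.47 to -0.21 for mitosis and from -0.43 to 0.00 for histones; both ends of a line share the mimic arrays.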

How the data were processed

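Per the submitters' processing notes, the authors used RMA and Partek 6.3. They deposited 1 log2 value for each of 33297 probe sets and array, and these were used as deposited. Of the probe sets, 19460 carried 1 gene symbol, 1754 several and 12083 none. Each of 18417 genes was represented by its brightest single-symbol probe set, judged by the mean of the 12 arrays (769 had more than 1). limma 3.58.1 under R 4.3.3 fitted all 12 arrays with 4 means (NC1 1 to 3, NC1 4 to 6, SIN3A siRNA, mimic) and 8 residual degrees of freedom. A gene was called at a Benjamini-Hochberg adjusted p under 0.05 over all genes, and "rose" and "fell" are used for called genes. The median SE of a log2 difference was 0.107; the number of arrays limits the precision. The fit was tested on simulated data. Lists got no test of their own, and 1 list is not reported here. The naming rule picked SIN3A and CFTR, the 15 largest called rises and falls without overlap between the groups, up to 4 called members of each list by adjusted p; the text adds further list members to fill out a group and genes said to be singled out. Unnamed loci and small RNA genes were not named, nor were genes known only from probe sets shared by several symbols. Members and lists were chosen with earlier results of these data known. A planned description of seed matches was not run, since 3′ UTR sequences were not used here.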

Additional observations from a re-analysis of the deposited data

Results flagged for a closer look

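Among the 13837 probe sets that carry several gene symbols or none, which no comparison of genes used, 53 were called between the mimic and NC1 4 to 6 (0.383%, limma adjusted p under 0.05 over these probe sets), 35 of them higher and 18 lower. They were 28 with several symbols and 25 with none. These probe sets were not followed further.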

How the results depend on the processing

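The choice of control moved the results most. With NC1 1 to 3 as the control 1575 genes were called, 1107 of them higher, and with all 6 NC1 arrays 192, 118 higher and 74 lower. An adjusted p under 0.01 gave 343, 152 higher and 191 lower. Leaving out 1 of the 6 arrays gave 363 to 560 genes in all, 163 to 224 higher and 197 to 366 lower. CFTR was at -0.22 against NC1 1 to 3 and -0.39 against all 6, neither called, and its -0.57 did not pass at 0.01 (limma adjusted p = 0.0188); with 1 array left out it was -0.69 to -0.49, and SIN3A was -1.21 to -1.05. The 6 arrays fitted alone, a second quantile normalization, median centring, the mean of a gene's probe sets, brighter genes only, and a trended robust variance gave 570 to 730 genes. In these, SIN3A and CFTR kept direction and call. Without NC1 3, an alternative chosen after seeing the data, 836 genes were called, 385 higher and 451 lower. No paired analysis was possible because NC1 4 to 6 carry replicate numbers that no mimic array has.

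Of the 83 genes picked by the naming rule, 64 kept the call whichever array was left out. The choice of control mattered more. Against NC1 1 to 3, 28 of the 83 kept direction and call, and 35 kept direction but lost the call. With all 6 NC1 arrays, 22 kept both and 56 kept direction but lost the call. Of the 15 largest rises, 5 were called in the same direction against NC1 1 to 3, and of the 15 largest falls, 6. Among these 83, 20 turned direction against NC1 1 to 3: IL6 (-0.28), IFI27 (-0.50), IFITM1 (-0.67), H2BC10 (0.43), H1-3 (0.71), H2BC14 (0.14), H4C2 (0.71), VIM (0.20), CDK6 (0.05), PSMB9 (-0.18), PSME1 (-0.03), CFB (-1.20), SAA1 (-2.84), SLC12A2 (0.22), S100P (-0.72), AGR2 (-0.47), BET1 (-0.06), SCD (0.02), ACACA (0.53) and AKR1C1 (-0.07). With all 6 NC1 arrays 5 turned: CFB (-0.32), SAA1 (-1.01), S100P (-0.10), AGR2 (-0.000117) and ACACA (0.04). Other list members in the text also turned against NC1 1 to 3: POLA1, RFC2, RFC5, BUB1B, HMMR, NUF2, ISG15, CCL20, AKR1B10 and AKR1C3. The cause was not tested.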
